A study of Rattus norvegicus with 200 samples.

Results

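The genes of the rat major histocompatibility complex (MHC) class II pathway and their transactivator Ciita were followed through 200 bulk RNA-seq libraries labelled microglia, the macrophage population that resides in brain tissue. The members were taken by gene symbol, not by their levels, and were 8 of the 20361 genes in the count table. They were the class II chains RT1-Ba, RT1-Bb, RT1-Da and RT1-Db1, the DM chains RT1-DMa and RT1-DMb, the invariant chain Cd74, and Ciita. All 8 passed the filter on low counts, which left 14393 genes for testing.

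The libraries came from the brains of adult male Wistar rats whose genotype was labelled WT, and the comparisons addressed how a high-fat diet (HFD) and the hours of feeding act on microglial transcripts over the day. Rats received standard chow or HFD, and each diet was given ad libitum, in the dark phase only (dark-feeding) or in the light phase only (light-feeding). Chow ad libitum had 34 libraries, chow dark-feeding 33, chow light-feeding 33, HFD ad libitum 34, HFD dark-feeding 33 and HFD light-feeding 33. Each group was sampled at Zeitgeber time (ZT, hours after lights on) 2, 6, 10, 14, 18 and 22, each time being covered by 5 to 7 libraries of a group. The labels do not say whether each library is a separate rat, so the p-values measure the spread between libraries.

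MHC class II molecules are heterodimers of an alpha and a beta chain that carry peptides from the endosomal pathway to the cell surface, where CD4 T cells read them. The invariant chain Cd74 escorts new dimers and blocks their groove until cathepsins cut it, and the DM heterodimer then exchanges the remaining fragment for peptide. Ciita binds no DNA itself but docks on the RFX, CREB and NF-Y proteins assembled on the X and Y boxes of class II promoters, and it is the gene through which interferon gamma switches class II on. Resting microglia express little class II, while the macrophages of the brain's borders, dendritic cells and B cells express more.

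The promoters of the chain genes are shown because most of them share the letters of the X and Y boxes. RefSeq promoter sequences (build GRCr8) matched 6 of the 8 members. The X box was searched as a G, any 2 bases and ACNGATG, and the Y box as TGATTGG, on both strands of the 250 bases before the start, and an X box followed by a Y box counted as a pair when 10 to 30 bases lay between them. These letters were chosen after reading the same promoters, so a match in a member is a description. A pair was found in 4 of the 6 members, RT1-Da, RT1-Db1, RT1-Bb and RT1-DMa, with a gap of 21, 20, 20 and 21 bases. Over all 33469 rat promoters in the table, 7 held a pair (0.0209%). The other 3 were those of RT1-Db2, RT1-DOb and Hsd17b7, and RT1-Db2 and RT1-DOb are class II chains as well. The X letters alone were in 2.26% of promoters and the Y letters in 6.42%. RT1-Ba held the Y letters and not the X letters, and the Cd74 window held neither. The 150 bases before the start are given below 5′ to 3′ in the direction of the gene, with the X and Y letters in capitals:
RT1-Da promoter, chr20:4515265-4515414, plus strand: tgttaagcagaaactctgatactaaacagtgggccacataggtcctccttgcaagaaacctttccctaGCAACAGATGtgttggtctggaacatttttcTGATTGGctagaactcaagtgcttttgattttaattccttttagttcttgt
RT1-Db1 promoter, chr20:4560163-4560312, minus strand: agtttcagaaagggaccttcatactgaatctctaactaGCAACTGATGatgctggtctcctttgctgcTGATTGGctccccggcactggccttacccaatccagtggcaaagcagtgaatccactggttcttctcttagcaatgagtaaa
RT1-Bb promoter, chr20:4604119-4604268, minus strand: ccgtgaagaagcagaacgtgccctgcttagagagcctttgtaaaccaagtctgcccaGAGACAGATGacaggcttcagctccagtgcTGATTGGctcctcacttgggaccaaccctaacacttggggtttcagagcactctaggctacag
RT1-DMa promoter, chr20:4712336-4712485, minus strand: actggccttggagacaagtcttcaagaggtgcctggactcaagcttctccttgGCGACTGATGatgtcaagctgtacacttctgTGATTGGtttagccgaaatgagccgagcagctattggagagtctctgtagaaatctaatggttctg
RT1-Ba promoter, chr20:4576907-4577056, plus strand: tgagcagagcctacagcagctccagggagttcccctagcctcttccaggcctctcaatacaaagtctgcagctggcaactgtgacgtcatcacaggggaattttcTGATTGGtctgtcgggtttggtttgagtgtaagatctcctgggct

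Cd74 was the most abundant of the 8 per unit of length and Ciita by far the least. On the FPKM scale, which divides by gene length and so allows levels of different genes to be set side by side, Cd74 averaged 133 ± 57.9 (SD, n = 200). The chains followed with RT1-Da at 44.7 ± 20.6, RT1-Ba at 35.6 ± 16.0, RT1-DMb at 35.2 ± 8.90, RT1-DMa at 31.7 ± 10.5, RT1-Bb at 29.1 ± 13.1 and RT1-Db1 at 24.4 ± 11.1 FPKM. The neighbours in that order differed by less than the SD of either gene, except for the step from Cd74 to RT1-Da and the step from RT1-Db1 to Ciita, which stood at 0.807 ± 0.379 FPKM. Ciita rested on few reads, with a median count of 28.5 and a range from 5 to 139, so its single-library values carry a large counting error.

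The libraries held transcripts of other brain cells beside those of microglia. Of 12 homeostatic microglia markers, 11 passed the filter on low counts, and their summed level had a median of 799.6 CPM (the count divided by the library's scaled total). The summed level of 8 oligodendrocyte markers had a median of 14686 CPM and that of 8 neuron markers 3434 CPM. Leukocytes and border macrophages, which can carry class II, were represented at lower sums. The median was 184.7 CPM for the dendritic cell markers (6 of 10 passed the filter), 65.2 CPM for border-associated macrophages (7 of 10), 42.7 CPM for T and NK cells (12 of 12) and 39.2 CPM for B cells (6 of 7). Most of the dendritic cell sum came from Flt3 (mean 102 CPM) and Zbtb46 (63.2 CPM), while Xcr1, Clec9a, Cd209a and Batf3 averaged 0.327 CPM or less. Stab1 (39.9 CPM) made up most of the border macrophage sum and Cd22 (30.9 CPM) most of the B cell sum. No listed marker, including those that did not pass the filter, was at 0 in every library. Total counts ran from 3.78 M to 11.64 M per library with a median of 7.55 M. In bulk RNA a change in the number of cells of a type and a change in the RNA of each cell cannot be told apart.

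Several libraries stood apart, and the numbers in the library titles did not run evenly over the groups. The highest value of Cd74, 484 CPM, came from replicate 2 of HFD dark-feeding at ZT2, and 5 libraries had a Cd74 level far from the others of their group and time. RT1-DMa was listed at 0 in 2 libraries, chow light-feeding ZT10 replicate 23 and HFD dark-feeding ZT14 replicate 14, in which its partner RT1-DMb stood at 28.3 and 31.8 CPM. These 2 values of 0 are in the deposited count table and in the FPKM table alike. In HFD ad libitum, 28 of 34 libraries carried a title number of 46 or less, whereas all 33 of HFD dark-feeding and all 33 of HFD light-feeding carried a higher one. Each chow group had 7 libraries up to 46. Chow and HFD titles are numbered in separate series, and the labels do not say what the numbers record.

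The 4 class II chains, Cd74 and Ciita were higher on HFD than on chow under both restricted schedules, by 0.40 to 0.73 on the log2 scale, while the DM chains were not. Under ad libitum feeding none of these 6 genes passed the test. The distributions overlapped broadly in every comparison.

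**Figure D1:**
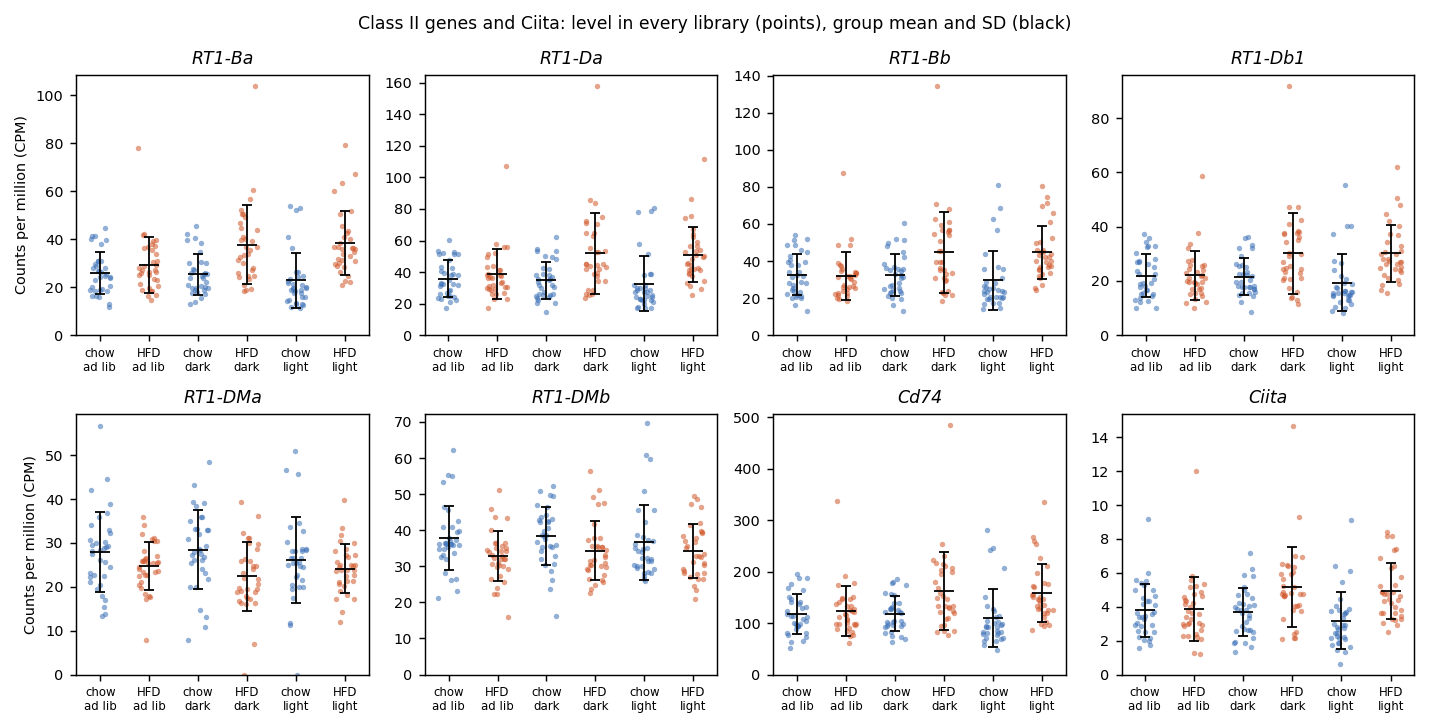
CPM of each of the 8 genes in every library (points) by group, with the group mean and SD; the axis is in CPM and each panel has its own scale. The HFD dark-feeding and HFD light-feeding means of the chains, Cd74 and Ciita lie above the other 4 groups, for example 162 and 159 CPM for Cd74 against 109.8 to 124, and the DM panels show no such step.

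RT1-Da, an alpha chain of the D locus, ran from 17.1 to 60.1 CPM in chow ad libitum (median 32.9), from 14.8 to 62.1 in chow dark-feeding (34.0) and from 17.0 to 80.3 in chow light-feeding (27.4). On HFD it ran from 17.5 to 107 CPM ad libitum (36.2), from 23.8 to 158 in dark-feeding (45.0) and from 25.4 to 112 in light-feeding (48.5). The chow and HFD ranges overlapped under each schedule, and the medians of the restricted HFD groups were the highest. RT1-Da was higher on HFD by 0.51 (SE 0.11, log2) in dark-feeding, at 6 of 6 times, with an adjusted p of 0.000116 (edgeR). In light-feeding the difference was 0.63 (SE 0.14), at 5 of 6 times, with an adjusted p of 0.000113 (edgeR).

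RT1-Ba, the alpha chain of the B locus, had the largest diet differences of the 8 under the restricted schedules. Its medians were 25.2, 23.7 and 19.5 CPM in chow ad libitum, dark-feeding and light-feeding, and 27.2, 35.5 and 36.1 CPM in the matching HFD groups. The lowest and highest values were 11.7 and 44.8, 13.0 and 45.5, and 11.5 and 54.1 CPM on chow, and 14.6 and 78.0, 18.4 and 104, and 21.0 and 79.2 CPM on HFD. The median of each restricted HFD group lay within the chow range. RT1-Ba was higher on HFD by 0.53 (SE 0.10; adjusted p 3.29e-05, edgeR) in dark-feeding and by 0.73 (SE 0.13; adjusted p 8.03e-06) in light-feeding, at 6 of 6 times in both.

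The beta chains were higher on HFD as well. RT1-Bb, which pairs with RT1-Ba, averaged 32.4 ± 11.4 CPM in chow dark-feeding and 44.7 ± 22.0 in HFD dark-feeding (SD, n = 33 each), with ranges of 13.2 to 60.8 and 18.6 to 134 CPM. RT1-Db1, which pairs with RT1-Da, averaged 21.6 ± 6.82 and 30.2 ± 15.0 CPM in the same groups, with ranges of 8.54 to 36.1 and 11.5 to 91.9. Both HFD groups reached past the top of the chow range and started within it. The diet difference was 0.41 (SE 0.11; adjusted p 0.00239, edgeR) for RT1-Bb and 0.42 (SE 0.11; adjusted p 0.00158) for RT1-Db1. In light-feeding it was 0.58 (SE 0.14) and 0.62 (SE 0.14), each at 5 of 6 times.

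Cd74 ran from 63.9 to 185 CPM in chow dark-feeding (median 119) and from 76.2 to 484 in HFD dark-feeding (146). In light-feeding it ran from 48.1 to 279.7 CPM on chow (92.0) and from 86.7 to 334 on HFD (146). No HFD light-feeding library was as low as the lowest chow library, and the rest of the ranges overlapped. The difference was 0.40 (SE 0.10; adjusted p 0.00102, edgeR) in dark-feeding and 0.51 (SE 0.14; adjusted p 0.00149) in light-feeding, each at 5 of 6 times.

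Ciita, the master regulator of the pathway, ran from 1.32 to 7.16 CPM in chow dark-feeding (median 3.80) and from 2.12 to 14.7 in HFD dark-feeding (4.75). In light-feeding it ran from 0.649 to 9.11 CPM on chow (2.78) and from 2.52 to 8.44 on HFD (4.65). The groups overlapped, with the low end of the HFD ranges above that of chow. Ciita was higher on HFD by 0.46 (SE 0.12; adjusted p 0.00127, edgeR) in dark-feeding, at 6 of 6 times, and by 0.61 (SE 0.14; adjusted p 0.000318) in light-feeding, at 5 of 6 times.

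The DM chains took the opposite sign. RT1-DMa ran from 7.79 to 48.4 CPM in chow dark-feeding (median 28.5) and from 0 to 39.3 in HFD dark-feeding (21.7), and RT1-DMb from 16.3 to 52.3 (38.7) and from 22.6 to 56.5 (32.5). The groups overlapped almost fully, with the HFD medians below those of chow. In dark-feeding RT1-DMa fell by 0.35 (SE 0.13; adjusted p 0.0239, edgeR) and RT1-DMb fell by 0.17 (SE 0.07; adjusted p 0.0394), each lower at 5 of 6 times. In light-feeding the differences were -0.10 (SE 0.12) and -0.11 (SE 0.08), and neither passed the test. Under ad libitum feeding RT1-DMb was the only member that passed, and it fell by 0.21 (SE 0.08; adjusted p 0.0401), lower at 4 of 6 times. The DM calls were lost under several settings. For RT1-DMa in dark-feeding the difference was -0.21 without ZT14, -0.27 without ZT18 and -0.14 with the microglia marker score as a covariate (adjusted p 0.144, 0.133 and 0.411, edgeR). It was -0.56 with limma on FPKM (0.0832) and -0.22 with the marker scores of 4 other cell types (0.354). For RT1-DMb the ad libitum difference was -0.13 without ZT14 and -0.13 without ZT18 (adjusted p 0.274 and 0.351, edgeR), and in dark-feeding it was -0.09 without ZT14 (0.333) and 0.03 with the microglia marker score (0.612).

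Read against all genes, many others differed by diet too. In dark-feeding 8 of 8 members passed, 6 higher and 2 lower, where 46% of all tested genes passed, 22.7% higher and 23.3% lower. In light-feeding 6 of 8 passed, all higher, where 50.5% of genes passed, 24.6% higher and 26% lower. In ad libitum feeding 1 of 8 passed, where 20.3% of genes passed, 9.48% higher and 10.8% lower. The other 7 members had ad libitum differences between -0.19 for RT1-DMa and 0.16 for RT1-Ba, with 95% intervals from -0.38 to 0.01 and from -0.05 to 0.37. The intervals for Cd74, -0.15 to 0.26, and for Ciita, -0.26 to 0.27, include 0 and reach differences of moderate size in either direction.

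Schedules were then compared within each diet; within a diet these comparisons share their groups. On chow no member passed in any of the 3 comparisons (edgeR), the lowest unadjusted p among the members was 0.103, and the count was 0 with DESeq2 too. Of all genes 0% passed for dark-feeding against ad libitum, 1.67% (0.528% higher and 1.15% lower) for light-feeding against ad libitum and 0% for light-feeding against dark-feeding, where 1714, 2741 and 616 genes had an unadjusted p under 0.05. Chow light-feeding had the lowest means of RT1-Ba, 22.8 ± 11.6 CPM, and of Ciita, 3.17 ± 1.69 CPM, against 26.0 ± 8.65 and 3.78 ± 1.54 in chow ad libitum. The difference for Ciita was -0.25, with a 95% interval from -0.55 to 0.05.

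On HFD both restricted schedules lay above ad libitum feeding. For dark-feeding 3 members passed, where 4.68% of genes passed, 1.72% higher and 2.97% lower. They were RT1-Bb at 0.42 (SE 0.11; adjusted p 0.0173, edgeR), RT1-Da at 0.38 (SE 0.11; 0.0330) and RT1-Db1 at 0.40 (SE 0.12; 0.0343). RT1-Ba at 0.32, Cd74 at 0.33 and Ciita at 0.40 had adjusted p-values of 0.0767, 0.0524 and 0.0539. For light-feeding 5 members passed, where 10.6% of genes passed, 5.65% higher and 4.94% lower. RT1-Bb differed by 0.47 (SE 0.10; adjusted p 0.00168), RT1-Db1 by 0.44, RT1-Da by 0.40, RT1-Ba by 0.37 and Cd74 by 0.34 (adjusted p 0.0247), and Ciita by 0.34 with an adjusted p of 0.0641. The DM chains lay between -0.16 and 0.05 in both and did not pass. Between HFD light-feeding and HFD dark-feeding no member passed with edgeR or DESeq2 or had an unadjusted p under 0.05, where 0.0834% of genes passed, 0.0486% higher and 0.0347% lower. The 95% interval of that difference was -0.21 to 0.28 for RT1-Da and -0.22 to 0.26 for Cd74.

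These HFD schedule differences could not be separated from the title numbers. Among HFD ad libitum libraries Cd74 averaged 119.6 ± 51.7 CPM in the 28 with numbers up to 46 and 144.4 ± 20.3 in the 6 above, and those 6 fell at ZT10, ZT14 and ZT18 only. RT1-Da averaged 36.5 ± 16.4 and 48.3 ± 7.28 CPM in the same libraries. With the title number fitted as a smooth curve, or with titles above 46 only, no member passed in either comparison. The difference of RT1-Da from ad libitum became 0.21 and 0.00 in dark-feeding, and 0.00 and 0.13 in light-feeding. The low title numbers of HFD ad libitum and the ad libitum schedule therefore cannot be told apart.

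**Figure D2:**
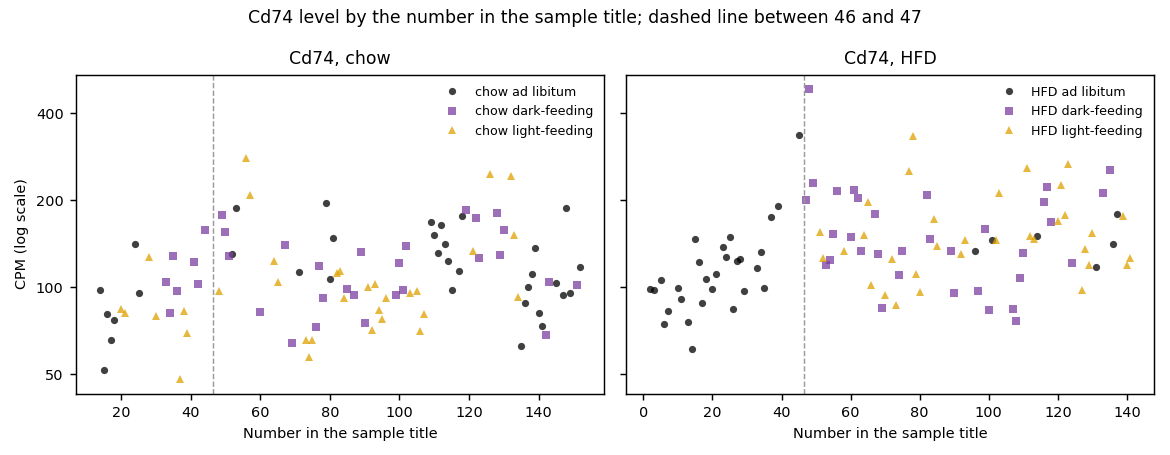
CPM of Cd74 (log axis) in each library against the number in its title, with chow and HFD libraries in separate panels and the schedule by colour and marker; the dashed line lies between 46 and 47. On HFD the numbers up to 46 belong to ad libitum libraries alone, and in chow ad libitum the 7 libraries up to 46 average 86.9 CPM of Cd74 against 125.8 in the 27 above. These means are not adjusted for time, and most of the 7 fell at ZT18.

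The same order of low and high numbers was seen on chow ad libitum, where Cd74 averaged 86.9 ± 28.7 CPM in the 7 libraries up to 46 and 125.8 ± 36.6 in the 27 above. In chow dark-feeding the values were 113 ± 24.8 (n = 7) and 119 ± 36.4 CPM (n = 26), and in chow light-feeding 81.6 ± 23.5 (n = 7) and 117 ± 59.8 CPM (n = 26). The libraries up to 46 fell at ZT6 and ZT10 only in chow dark-feeding and at ZT18 and ZT22 only in chow light-feeding. In chow ad libitum most of them fell at ZT18. These means were not adjusted for time, so they do not separate title number from time of day. With titles above 46 in both diets, a setting chosen after seeing the data, the diet differences in dark-feeding were 0.46 for RT1-Da, 0.47 for RT1-Ba, 0.35 for Cd74 and 0.41 for Ciita, and all 4 passed. In light-feeding they were 0.53, 0.63, 0.42 and 0.48, and again all passed. Ad libitum RT1-DMa then differed by -0.72 (adjusted p 0.0488, edgeR), RT1-DMb by -0.39 (0.106) and Cd74 by 0.09 (0.787). That ad libitum fit kept 6 HFD libraries, at ZT10, ZT14 and ZT18 only, and 27 on chow. Among the 6, replicate 33 at ZT10 had RT1-DMa at 7.83 CPM. Because the diets have title series of their own, diet and whatever followed the series cannot be told apart.

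Whether the diet difference itself depended on the schedule was tested by interaction. For light-feeding against ad libitum 5 members passed, where 9.58% of genes passed, 5.75% higher and 3.84% lower. The estimates were 0.62 for RT1-Bb (SE 0.18; adjusted p 0.0146, edgeR), 0.62 for RT1-Db1 (0.0191), 0.57 for RT1-Ba (0.0252), 0.54 for RT1-Da (0.0345) and 0.60 for Ciita (0.0381). Cd74 had 0.44 with an adjusted p of 0.0862. No member passed without ZT6, ZT10 or ZT14, where the estimates were 0.50, 0.51 and 0.42 for RT1-Da and 0.61, 0.56 and 0.46 for RT1-Bb. With titles above 46 in both diets no member passed either, and the estimates were 0.38 for RT1-Bb, 0.22 for RT1-Da and 0.29 for Ciita. That setting kept 6 HFD ad libitum libraries and left out 28. For dark-feeding against ad libitum no member passed with edgeR or DESeq2, where 0.862% of genes passed, 0.222% higher and 0.639% lower. The chains, Cd74 and Ciita had estimates of 0.36 to 0.48 there, and these 6 had unadjusted p-values from 0.00387 to 0.0187. For light-feeding against dark-feeding no member passed with edgeR or DESeq2 or had an unadjusted p under 0.05, where 0% of genes passed.

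Ratios within a library set the members against each other. In each library the log2 ratio of RT1-DMb to RT1-Da was taken from log2 CPM with a prior count of 2. It ran from -0.73 to 1.06 in chow ad libitum (median 0.05), from -0.54 to 1.03 in chow dark-feeding (0.16) and from -0.66 to 0.98 in chow light-feeding (0.23). On HFD it ran from -1.06 to 0.40 ad libitum (-0.14), from -1.48 to 0.15 in dark-feeding (-0.54) and from -1.50 to -0.07 in light-feeding (-0.50). The ratio is not scaled to gene length, so its 0 marks no equal level. It was above 0 in 17 of 34, 22 of 33 and 27 of 33 chow libraries, and in 11 of 34, 4 of 33 and 0 of 33 HFD libraries. The HFD groups were the lower under each schedule, and the ranges overlapped.

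**Figure D3:**
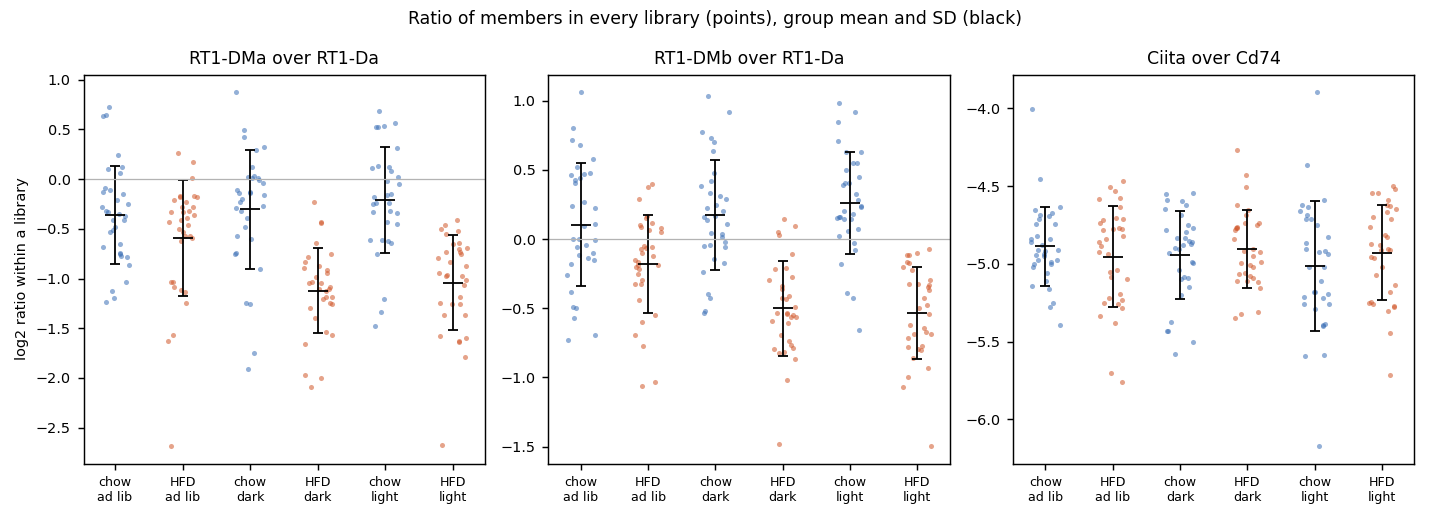
Log2 ratio of RT1-DMa to RT1-Da, RT1-DMb to RT1-Da and Ciita to Cd74 in each library by group, with the group mean and SD; the 2 libraries at 0 for RT1-DMa are not drawn in its panel. The DM ratios of HFD dark-feeding and HFD light-feeding lie lowest, with means of -0.50 and -0.53 for RT1-DMb to RT1-Da against 0.10 to 0.26 on chow, and the Ciita to Cd74 means lie between -5.01 and -4.89 in all groups.

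Ratios were tested by permuting libraries within each time, 100000 times and two-sided, for 5 ratios in 9 comparisons, and the 45 p-values were adjusted together. The ratio of RT1-DMb to RT1-Da was lower on HFD by -0.67 in dark-feeding and -0.80 in light-feeding, and that of RT1-DMa to RT1-Da by -0.81 and -0.82, at 6 of 6 times each; the 2 libraries at 0 for RT1-DMa were left out of its ratio. All 4 had the adjusted p of 0.000112 that follows from the smallest p the permutations can give, 1e-05. Ad libitum, the RT1-DMb ratio differed by -0.30 (adjusted permutation p 0.0088, lower at 4 of 6 times) and the RT1-DMa ratio by -0.26 (0.128). Within HFD, both DM ratios were lower in the restricted groups than ad libitum, by -0.30 to -0.49 with adjusted permutation p-values from 0.00054 to 0.00305.

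The order of the HFD groups differed when only libraries with title numbers above 46 were set side by side. In HFD ad libitum the mean RT1-DMb ratio was -0.08 ± 0.29 in the 28 libraries up to 46 and -0.63 ± 0.28 in the 6 above, against -0.50 ± 0.34 in dark-feeding and -0.53 ± 0.33 in light-feeding, whose titles are all above 46. The mean RT1-DMa ratio was -0.42 ± 0.39 and -1.38 ± 0.72 in HFD ad libitum, against -1.12 ± 0.43 and -1.04 ± 0.48. Above 46 the ad libitum means were therefore the lowest of the 3 HFD groups. Those 6 libraries fell at ZT10, ZT14 and ZT18 only, against all 6 times in the restricted groups, and the means were not adjusted for time. Replicate 33 at ZT10, among the 6, had an RT1-DMa ratio of -2.68. The ad libitum libraries at ZT10 with numbers up to 46 had RT1-DMa ratios of -1.09 and -1.03. On chow ad libitum the RT1-DMb ratio was 0.68 ± 0.21 up to 46 (n = 7) and -0.05 ± 0.36 above (n = 27), and the RT1-DMa ratio 0.23 ± 0.47 and -0.51 ± 0.38. In chow light-feeding the RT1-DMb ratio was 0.55 ± 0.20 and 0.18 ± 0.37, and the RT1-DMa ratio 0.22 ± 0.30 and -0.33 ± 0.53. Chow dark-feeding showed no such step, with 0.23 ± 0.20 and 0.16 ± 0.44 for RT1-DMb and -0.43 ± 0.75 and -0.27 ± 0.57 for RT1-DMa. The chow means were not adjusted for time either, and the chow libraries up to 46 were spread unevenly over the times, as given above.

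The B locus pair shifted by less. The log2 ratio of RT1-Bb to RT1-Ba averaged 0.32 ± 0.20, 0.34 ± 0.21 and 0.35 ± 0.19 on chow ad libitum, dark-feeding and light-feeding, and 0.13 ± 0.19, 0.21 ± 0.18 and 0.22 ± 0.16 on HFD. It was lower on HFD by -0.20 (adjusted permutation p 0.00169), -0.12 (0.0432) and -0.14 (0.00877), at 6, 5 and 5 of 6 times. RT1-Db1 to RT1-Da and Ciita to Cd74 did not pass in any of the 9 comparisons. For Ciita to Cd74 the diet differences were -0.07, 0.05 and 0.08. Reads of near-identical RT1 copies may be divided between genes by the estimates in the deposited table, and a difference between alleles or copies that align unequally was not tested.

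Over the day, the chains, Cd74 and Ciita had their fitted peak in the light phase in the ad libitum and dark-feeding groups of both diets, though not all of these fits passed. In HFD dark-feeding RT1-Da averaged 81.0 ± 39.4 CPM at ZT2 (n = 6), 64.3 ± 16.5 at ZT10 (n = 6) and 34.4 ± 8.40 at ZT18 (n = 5), and Cd74 stood at 249.95 ± 117 CPM at ZT2 and 116 ± 30.1 at ZT18. The ZT2 mean includes the library at 158 CPM of RT1-Da and 484 CPM of Cd74. In HFD ad libitum RT1-Da averaged 54.7 ± 2.60 CPM at ZT10 and 30.3 ± 9.52 at ZT18 (n = 5 and 6). In chow light-feeding the mean of RT1-Da was lowest at ZT10, with 25.6 ± 3.40 CPM there (n = 6) and 41.6 ± 21.5 at ZT22 (n = 6). The ZT18 mean of that group includes replicate 30 at 78.8 CPM. The other ZT18 libraries had a median of 22.6 CPM and reached 25.2 CPM at most. At ZT2 of that group replicates 9 and 10 stood at 78.3 and 58.0 CPM, and replicates 13, 14 and 15 at 19.6, 17.5 and 17.9 CPM. The place of the trough therefore depends on these few high libraries.

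**Figure D4:**
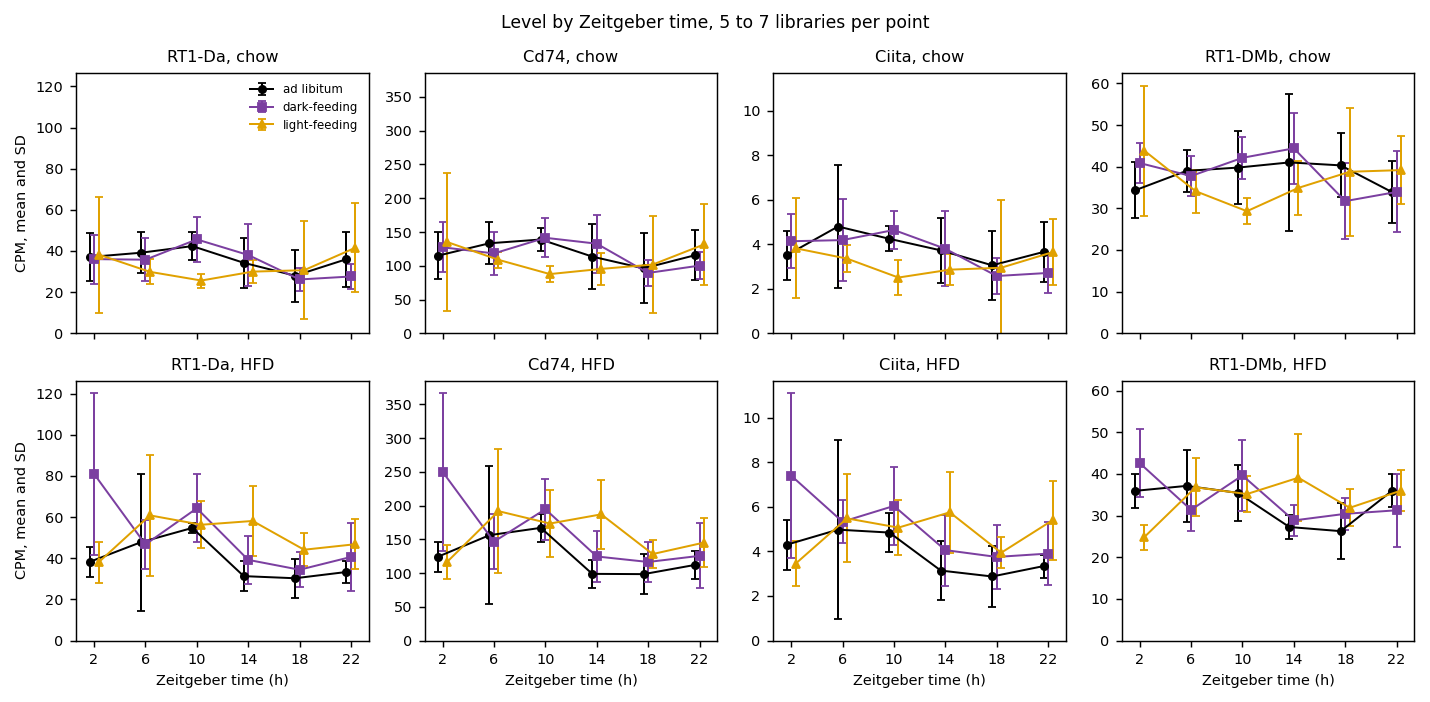
Mean CPM with SD of RT1-Da, Cd74, Ciita and RT1-DMb (columns; chow above, HFD below) over the 6 Zeitgeber times in each group (5 to 7 libraries per point). RT1-Da in HFD dark-feeding starts at 81.0 CPM at ZT2 and is at 34.4 CPM at ZT18, and in chow light-feeding the mean of RT1-Da is lowest at ZT10. The ZT18 mean of RT1-Da in chow light-feeding includes a library at 78.8 CPM, and the ZT2 mean includes libraries at 78.3 and 58.0 CPM. The SD bar of Ciita in chow light-feeding at ZT18 reaches below 0 and is clipped at the axis.

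A 24 h cosine was fitted in each group with edgeR. In HFD ad libitum 8 of 8 members passed, where 19.5% of genes passed. The chains, Cd74 and Ciita had a fitted peak-to-trough fold of 1.60 to 1.81 with peaks from ZT6.32 to ZT7.21, while RT1-DMa peaked at ZT1.07 with a fold of 1.40 and RT1-DMb at ZT4.03 with 1.43. In HFD dark-feeding 6 of 8 passed, where 27.3% of genes passed. Their peak-to-trough fold was 1.75 to 2.05 with peaks from ZT4.74 to ZT5.30, and the DM chains had adjusted p-values of 0.0911 and 0.0997. In chow dark-feeding 4 passed, where 22.6% of genes passed. They were RT1-Ba with a fold of 1.56, RT1-Da with 1.63, RT1-Bb with 1.66 and Ciita with 1.80, with peaks from ZT7.77 to ZT8.92.

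Title numbers came in runs by time of day. In HFD ad libitum the numbers up to 46 lay in a separate stretch for each time, with 1 library of ZT6 outside its stretch, and the 6 numbers above 46 fell at ZT10, ZT14 and ZT18, so time of day and title order cannot be told apart there. Other groups held runs too, such as 47 to 49 and 116 to 118 at ZT2 of HFD dark-feeding. In chow light-feeding the ZT10 libraries were numbered 91 to 96. No rhythm fit was adjusted for title number.

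The other 3 groups gave no call among the members. In chow ad libitum 4.48% of genes passed, and no member had an unadjusted p under 0.05. In chow light-feeding 20.2% of genes passed, and RT1-DMa and RT1-DMb alone had an unadjusted p under 0.05. The fitted peaks of the chains lay around lights on there, from ZT23.2 for RT1-Da to ZT0.382 for RT1-Db1. The ZT2 libraries behind these peaks were split. RT1-Da stood at 78.3 and 58.0 CPM in replicates 9 and 10, and at 19.6, 17.5 and 17.9 CPM in replicates 13, 14 and 15. The high ZT2 mean thus rests on replicates 9 and 10. In HFD light-feeding 0.868% of genes passed, the chains had fitted peaks from ZT9.98 to ZT11.0, and RT1-Ba, RT1-Da and Cd74 had an unadjusted p under 0.05.

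Differences between fitted rhythms were tested directly. Between light-feeding and dark-feeding on chow 7 of 8 members passed, where 36.9% of genes passed. The adjusted p-values (edgeR) ran from 0.0112 for RT1-Bb to 0.0457 for RT1-Ba, with Ciita at 0.0677. On HFD 2 passed, RT1-Bb (0.0323) and RT1-Da (0.0418), where 21.9% of genes passed, and neither passed with limma on FPKM or without the libraries whose Cd74 stood apart. On chow, limma on FPKM called 2 members. The chow light-feeding libraries in this test were split at ZT2. Cd74 stood at 279.7 and 208 CPM in replicates 9 and 10, and at 65.8, 57.3 and 65.6 CPM in replicates 13, 14 and 15. No rhythm fit left out replicates 9 and 10. Between diets no member passed under any schedule, where 0%, 0% and 9.02% of genes passed ad libitum, in dark-feeding and in light-feeding. In light-feeding 7 members had an unadjusted p under 0.05, and the adjusted p-values of RT1-DMb, RT1-Bb, RT1-Db1, Cd74, RT1-Ba and RT1-Da ran from 0.0519 to 0.0741. In ad libitum feeding RT1-DMa and RT1-DMb had an unadjusted p under 0.05, and in dark-feeding RT1-Bb and RT1-Da had one. That a rhythm passed on HFD ad libitum and not on chow ad libitum therefore does not show a difference between the diets.

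Beyond group and time, the class II genes varied between libraries far more than most genes. After the mean of each group and time was removed from log2 CPM, the SD was 0.47 for RT1-Ba, 0.48 for RT1-Bb, 0.47 for RT1-Da, 0.49 for RT1-Db1, 0.46 for Cd74 and 0.53 for Ciita, against 0.20 for the median gene. Between 90.5% and 94.6% of all genes had a smaller SD. RT1-DMb was steadier, with an SD of 0.30 and 72.9% of genes below it. RT1-DMa had 0.75, or 0.42 without the 2 libraries at 0. Non-whole estimated counts, which can arise when reads are shared between copies or overlapping genes, made up 92% of the RT1-DMb entries and 20% of those of RT1-DMa, 2% for RT1-Bb and RT1-Db1, and 0% for RT1-Ba, RT1-Da, Cd74 and Ciita. RT1-Db2, a close copy of the Db1 chain, was listed at 0 in 81 libraries, averaged 0.134 CPM and was not tested. When the counts of RT1-Ba and RT1-Da, of the beta chains with RT1-Db2, and of the DM chains were summed before the fit, a step chosen after seeing the data, the diet differences in dark-feeding were 0.52, 0.41 and -0.25, and in light-feeding 0.67, 0.60 and -0.10.

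The library-to-library deviations of the chains and Cd74 rose and fell together. Over 200 libraries, with 28 pairs tested by permutation, Pearson's r of these residuals lay between 0.91 and 0.96 among RT1-Ba, RT1-Bb, RT1-Da, RT1-Db1 and Cd74, and Spearman's rho between 0.88 and 0.95. For RT1-Da with Cd74 r was 0.96 and rho 0.95 (adjusted permutation p 1.27e-05 and 1e-05), r was 0.96 without the 2 libraries farthest out, and within single groups it ran from 0.95 to 0.98. For Cd74 with Ciita r was 0.80 and rho 0.78, and within groups r ran from 0.73 to 0.86. For Cd74 with RT1-DMb r was 0.71 and rho 0.69, with r from 0.49 to 0.89 within groups. For RT1-DMa with RT1-DMb, the 2 chains of one heterodimer, r was 0.31 and rho 0.57, and r was 0.60 in the 198 libraries where RT1-DMa was above 0. All 28 pairs had an adjusted permutation p of 0.00011 or less for r, and these libraries share depth and cell composition.

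Markers of other cells moved with the class II genes from library to library. Among 24 relations of residuals with marker scores, Cd74 had r = 0.77 and rho = 0.71 with the T and NK cell score, 0.71 and 0.66 with the B cell score, 0.70 and 0.65 with the border-associated macrophage score, 0.69 and 0.64 with the dendritic cell score and 0.65 and 0.60 with the microglia score, each with an adjusted permutation p of 1.5e-05. With the neuron score r was -0.10 and rho -0.11 (adjusted permutation p 0.153 and 0.118), and with the mural cell score -0.03 and -0.04 (0.689 and 0.585). RT1-DMb had its highest relation with the microglia score, r = 0.80 and rho = 0.76. Without the 2 libraries farthest out, r of Cd74 was 0.75 with the T and NK cell score and 0.67 with the border-associated macrophage score. The members of the dendritic cell score disagreed in sign. Against the mean residual of the class II chains and Cd74, Flt3 had r = -0.56 and Zbtb46 r = -0.48. Ccr7, Itgae, Itgax and Clec4a3 had r from 0.41 to 0.66.

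Genes outside the pathway tracked the class II genes over the 200 libraries as well. Likeness was Pearson's r with the mean residual of RT1-Ba, RT1-Bb, RT1-Da, RT1-Db1 and Cd74 over 14147 genes with a mean of at least 1 CPM. The 10 highest were Lcp1, an actin bundler of blood cells (0.83), Fgl2 (0.82), the elongation factor Eef1a1 (0.82), the macrophage lectin Clec10a (0.81), the poly(A)-binding protein Pabpc1 (0.80), the class I light chain B2m (0.80), Cd53 (0.80), Ets1 (0.79), the interferon-induced Ifi47 (0.79) and the lysozyme gene Lyz2 (0.79). The lowest were Vegfa (-0.66), Repin1 (-0.65) and Epb41l1 (-0.65). The median over all genes was -0.02 and the 95th percentile 0.49. Among the pathway lists Ifi30, the lysosomal thiol reductase of antigen processing, had 0.79, Tgfb1 had 0.75 and RT1-DOa 0.62, while Rfx5, the DNA-binding subunit of the RFX complex, had -0.48.

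Other genes of the pathway were counted beside the shares of all genes that passed, which were 20.3% ad libitum (9.48% higher and 10.8% lower), 46% in dark-feeding (22.7% and 23.3%) and 50.5% in light-feeding (24.6% and 26%). Of 9 tested genes of the promoter complex, 2, 3 and 4 were higher and 0 lower on HFD in ad libitum, dark-feeding and light-feeding, with list medians of 0.01, 0.00 and 0.01 against -0.02, -0.01 and -0.01 over all genes. Those that rose were the CRE-binding factor Creb1 (0.18, 0.28 and 0.26), the acetyltransferases Kat2b (0.10, 0.17 and 0.09) and, in the restricted schedules, Ep300 (0.09 and 0.12), with Crebbp in light-feeding (0.06). Rfx5, Rfxank and the NF-Y subunits did not pass in any diet comparison. Creb1 averaged 38.4 ± 6.79 CPM in chow dark-feeding and 46.6 ± 5.44 in HFD dark-feeding (n = 33 each).

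In the interferon gamma axis the genes that passed in the restricted schedules were a share close to that of all genes. Of 10 tested genes 0 were higher and 3 lower ad libitum, 1 higher and 3 lower in dark-feeding, and 3 higher and 2 lower in light-feeding, with medians of -0.09, -0.04 and 0.05. The receptor chain Ifngr1 fell by 0.27, 0.24 and 0.16, and the transcription factor Irf8 fell by 0.30 in dark-feeding and by 0.23 in light-feeding. The kinase Jak2 rose by 0.11 and 0.09 in the restricted schedules and Il10ra by 0.15 in light-feeding. Ifng itself was listed at 0 in 187 of 200 libraries and was not tested.

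Processing and costimulation genes followed. Of 12 processing genes 1 was higher and 4 lower ad libitum, 2 higher and 6 lower in dark-feeding, and 2 higher and 4 lower in light-feeding, with medians of -0.04, -0.10 and -0.02. Sppl2a, the intramembrane protease that clears the Cd74 stub, rose by 0.17, 0.26 and 0.28, and the cathepsin Ctsz fell by 0.30, 0.32 and 0.24. Ctss, the cathepsin that cuts the invariant chain, fell by 0.25 in dark-feeding, from 294 ± 58.8 to 249 ± 44.5 CPM, and Ctsb rose by 0.15 in light-feeding. Of 6 costimulation genes 0 were higher and 2, 3 and 3 were lower, with medians of -0.21, -0.22 and -0.14. Icam1 fell by 0.25, 0.24 and 0.23, Icoslg fell by 0.29 and 0.28 in the restricted schedules, Cd40 fell by 0.49 ad libitum and 0.44 in light-feeding, and Cd80 fell by 0.34 in dark-feeding. Of the 2 DO chains, modifiers of DM, RT1-DOb fell by 0.25 in dark-feeding (adjusted p 0.0367, edgeR) and RT1-DOa did not pass.

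Within HFD the same pathway lists were compared between schedules. For dark-feeding against ad libitum 2 of 9 promoter complex genes were higher, and 0 of the interferon gamma, processing and costimulation genes passed (edgeR), where 1.72% of all genes were higher and 2.97% lower. For light-feeding against ad libitum 1 promoter complex gene was higher and 3 were lower, 3 of 10 interferon gamma genes and 2 of 12 processing genes were higher, and 0 of 6 costimulation genes passed, where 5.65% of all genes were higher and 4.94% lower. Rfx5 was among the lower ones, with a difference of -0.12, and Ifngr2 among the higher, with 0.18.

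The marker lists of other cells differed by diet beside these results. In the restricted schedules the vascular and astrocyte lists were lower on HFD. All 8 astrocyte markers passed in dark-feeding and in light-feeding, with list medians of -0.60 and -0.76, as did 5 of 5 mural markers (-0.95 and -1.06), 6 of 6 meningeal fibroblast markers (-0.61 and -0.79) and 6 and then 7 of 7 endothelial markers (-0.55 and -0.74). The summed mural level ran from 21.4 to 101.5 CPM in chow dark-feeding (median 48.2) and from 21.0 to 39.4 in HFD dark-feeding (26.2). The summed oligodendrocyte median was higher on HFD, 13455 against 14988 CPM in dark-feeding and 13285 against 15796 in light-feeding. The neuron sums had medians of 3289 and 3492 CPM, and of 3289 and 3578. For dendritic cells they were 181.9 and 188.3 CPM, and 182.8 and 183.5. The ranges of these sums overlapped. Of 11 microglia markers 5 and 4 were lower and 0 higher, where 23.3% and 26% of all genes were lower and 22.7% and 24.6% higher. Of 7 border-associated macrophage markers 3 were higher in dark-feeding, and 2 were higher and 1 lower in light-feeding. Of 12 T and NK cell markers 0 passed in dark-feeding and 3 were higher in light-feeding, and of 6 B cell markers 0 passed and 1 was higher.

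Fits with these marker scores as covariates moved the class II differences by different amounts. With the microglia score the diet difference of the chains, Cd74 and Ciita lay between 0.62 for Cd74 and 0.78 for RT1-Ba in dark-feeding and between 0.78 and 0.98 in light-feeding. With the border-associated macrophage score it lay between 0.19 for RT1-Bb and 0.32 for RT1-Ba in dark-feeding and between 0.44 and 0.65 in light-feeding, where RT1-Bb in dark-feeding no longer passed (adjusted p 0.0568, edgeR). With the T and NK cell score it lay between 0.38 and 0.51, and between 0.37 and 0.59. With the scores of oligodendrocytes, neurons, astrocytes and endothelium together it lay between 0.26 and 0.42 in dark-feeding, where RT1-Ba, RT1-Da and Ciita still passed, and between 0.77 and 0.90 in light-feeding. Without the libraries whose Cd74 stood apart it lay between 0.35 and 0.48, and between 0.54 and 0.76. Under ad libitum feeding RT1-Ba passed as higher on HFD with the microglia score and with the T and NK cell score. Cd74 passed as higher with the T and NK cell score, and RT1-DMb passed with neither score. The HFD difference of dark-feeding from ad libitum was between 0.00 for RT1-Ba and 0.11 for Ciita with the border-associated macrophage score and between 0.11 and 0.23 with the T and NK cell score, where RT1-Bb alone still passed. From which cells the class II transcripts came was not tested.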

How the data were processed

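Brain samples labelled microglia were sequenced in 200 bulk libraries, prepared with a strand-specific MGIEasy kit after RNeasy Micro extraction and run on a DNBSEQ instrument, per the labels' protocols. The authors deposited expected counts (estimated counts per gene) and FPKM values. The build was Rnor_6.0, according to the submitters' processing notes, and for aligner and counter the sources used here give no name. Of the count entries 8.03% were not whole, and they were rounded. The design foresaw whole counts, and the test was kept.

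Counts were filtered with filterByExpr, scaled by TMM and fitted with edgeR 4.0.16 (quasi-likelihood, R 4.3.3) with time as a factor, on the libraries of the groups compared. Adjusted p-values are Benjamini-Hochberg over 14393 genes, with 0.05 as the threshold. Rhythms were F tests of a 24 h cosine. log2 CPM used a prior count of 2. DESeq2 1.42.0, limma 3.58.1 on log2(FPKM + 0.1), time points left out in turn, marker scores and title numbers were alternatives. On simulated counts for the dark-feeding diet comparison over 14393 genes, 62.7% of 1.25-fold and 98.5% of 1.5-fold changes were recovered, with 3.33% false calls. For the rhythm in chow ad libitum 8.96% of 1.25-fold, 47.8% of 1.5-fold and 93.9% of 2-fold changes were recovered, with 3.85% false calls. All genes were simulated with 1 fixed dispersion that was not fitted to the members. The chains, Cd74 and Ciita had residual SDs of 0.46 to 0.53, against 0.20 for the median gene, so their recovery may be lower. Permutation tests, correlations and figures used Python 3.11.15 with scipy 1.17.1.

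Totals of 3.78 M to 11.64 M counts per library leave Ciita, with a median count of 28.5, the least precise. The members and the gene lists were chosen with earlier results of these data known. All 8 members are named. From each list up to 4 genes past the threshold with the smallest adjusted p are named per comparison, or up to 2 with the smallest p where none passed, together with the 10 highest and 3 lowest genes by likeness; Ifng, RT1-Db2, Rfxank and other genes named beyond that were chosen after their values were seen. Of 157 listed gene names 153 were found in the table. RefSeq promoters (GRCr8) matched 6 members.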

Additional observations from a re-analysis of the deposited data

Results flagged for a closer look

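Within each group and time the highest or lowest library was checked for a gap to the others that is large against the range. Of 288 sets of a gene, group and time, 35 stood apart. The rule flags about 1 in 20 by chance if values are normally distributed, which CPM values need not be. A pair of libraries that is high together can go unflagged. This was so at ZT2 of chow light-feeding, with Cd74 at 279.7 and 208 in replicates 9 and 10. The sets are not independent, since the genes share libraries. All values are CPM and no cause was tested.

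Replicate 2 of HFD dark-feeding at ZT2 was far above its group for 6 genes, with RT1-Ba at 104, RT1-Bb at 134, RT1-Da at 158, RT1-Db1 at 91.9, Cd74 at 484 and Ciita at 14.7. Replicate 28 of HFD ad libitum at ZT6 was high for the same 6 genes, with RT1-Ba at 78, RT1-Bb at 87.4, RT1-Da at 107, RT1-Db1 at 58.8, Cd74 at 336 and Ciita at 12. Replicate 30 of chow light-feeding at ZT18 was high for all 8, with RT1-Ba at 52.9, RT1-Bb at 68.5, RT1-Da at 78.8, RT1-Db1 at 40.4, RT1-DMa at 46.6, RT1-DMb at 69.6, Cd74 at 245 and Ciita at 9.11. Replicate 20 of HFD light-feeding at ZT10 was high for RT1-Ba at 67.4, RT1-Bb at 71.4 and Cd74 at 259.

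Single genes were high in 9 further sets. In chow ad libitum these were RT1-DMa at 42 and RT1-DMb at 55.4 in replicate 6 at ZT10, RT1-DMb at 55.1 in replicate 11 at ZT18 and Cd74 at 188 in replicate 32 at ZT22. In chow dark-feeding they were RT1-Db1 at 36.1 in replicate 25 at ZT2, Ciita at 6.25 in replicate 28 at ZT10 and RT1-Bb at 38.3 in replicate 19 at ZT22. On HFD they were RT1-DMb at 43.7 in replicate 10 of ad libitum at ZT22 and Ciita at 5.21 in replicate 8 of light-feeding at ZT2. RT1-DMa was low in 3 sets, at 0 in replicate 14 of HFD dark-feeding at ZT14, at 7.06 in replicate 21 of HFD dark-feeding at ZT18 and at 14.2 in replicate 15 of HFD light-feeding at ZT10.

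The diet difference differed between light-feeding and ad libitum feeding, by interaction (edgeR), by 0.57 for RT1-Ba, 0.62 for RT1-Bb, 0.54 for RT1-Da, 0.62 for RT1-Db1 and 0.60 for Ciita on the log2 scale. None of these passed without ZT6, ZT10 or ZT14, or with titles above 46 in both diets, where 6 HFD ad libitum libraries remained. The fitted daily course differed between light-feeding and dark-feeding on chow with adjusted p-values (edgeR) of 0.0457 for RT1-Ba, 0.0112 for RT1-Bb, 0.0148 for RT1-Da, 0.0267 for RT1-Db1, 0.0345 for RT1-DMa, 0.0171 for RT1-DMb and 0.0403 for Cd74. On HFD it differed with 0.0323 for RT1-Bb and 0.0418 for RT1-Da, and neither passed with limma on FPKM or without the libraries whose Cd74 stood apart. In chow light-feeding the ZT2 libraries were split, with Cd74 at 279.7 and 208 CPM in replicates 9 and 10. No rhythm fit left these out.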

How the results depend on the processing

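Of 1872 log2 fold changes recomputed under alternatives, 1746 stayed on their side of the threshold (some uncalled values near 0 changed sign), 89 lost and 34 gained a call, and 3 with a call reversed: RT1-DMb on HFD against chow in dark-feeding with the microglia score (0.03), and RT1-Ba (-0.09) and Cd74 (-0.03) in HFD light-feeding against ad libitum with the title number spline. The cause was not tested. Counts of called members moved as follows. HFD against chow ad libitum had 1, and 0 without the count filter, with limma on FPKM, without ZT10, ZT14 or ZT18 and with the scores of 4 other cell types (oligodendrocytes, neurons, astrocytes and endothelium). It had 2 with the T and NK cell score, where RT1-DMb was lost and RT1-Ba and Cd74 passed as higher. With the microglia score RT1-Ba passed in place of RT1-DMb. In dark-feeding it had 8, and 3 with the scores of 4 other cell types. HFD dark-feeding against ad libitum had 3. It had 0 without ZT2 or ZT14, with the title spline or titles above 46, and 1 with limma on FPKM, 1 fit over all groups or the T and NK cell score, and 1 with the border macrophage score, where the 3 chains were lost and RT1-DMa passed as lower. It had 6 without ZT6, with the microglia score or without libraries whose Cd74 stood apart, and 5 without the libraries at 0 for RT1-DMa. HFD light-feeding against ad libitum had 5, and 1 without ZT14, 2 without ZT22 and 0 with the title spline or titles above 46. The dark-feeding interaction had 0, and 3 with the microglia score and 1 with the T and NK cell score. The light-feeding interaction had 5, and 3 without ZT2 and 0 without ZT6, ZT10 or ZT14 or with titles above 46 in both diets. Of rhythms, chow dark-feeding had 4 and 2 with limma on FPKM or with time as a factor. HFD ad libitum had 8, 4 under each of these, and 5 without libraries whose Cd74 stood apart. HFD light-feeding had 0, and 1 with time as a factor. Rhythm differences by diet in light-feeding had 0, and 4 without those libraries. Between light-feeding and dark-feeding, chow had 7 and 2 with limma on FPKM, and HFD had 2 and 0 with limma on FPKM or without those libraries. The settings with titles above 46 in both diets or with single libraries left out were chosen after seeing the data. With titles above 46 in both diets, the genes called over the whole table in the light-feeding interaction went from 1379 to 0. That setting kept 6 HFD ad libitum libraries, at ZT10, ZT14 and ZT18 only, and left out 28. The loss of libraries and the title order cannot be told apart in that fall.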
